A study of Mus musculus with 12 samples.

Results

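The neuromuscular junction genes described here are 10 transcripts of the muscle side of the synapse, chosen by gene symbol: the acetylcholine receptor subunits Chrna1, Chrnb1, Chrnd, Chrne and Chrng, the synaptic cholinesterase gene Ache and its collagen tail Colq, and the receptor clustering genes Rapsn, Musk and Dok7. All 10 were found among the 23923 gene symbols measured in each of 12 tibialis anterior muscles, the fast-twitch muscle at the front of the lower leg. The study asked what the loss of the muscle methyltransferase SMYD1 does to mature myofibers. The muscles came from mice 6 weeks old on a C57BL6/J;129S1/SvImJ background, 6 controls (Myf6 cre/+; Smyd1 flox/+) and 6 Smyd1 CKO mice (Myf6 cre/+; Smyd1 flox/-). All of them therefore carried the Myf6 cre allele, and by the study's cross also 1 Rosa26 YFP allele. Myf6 cre is active in myofibers from around birth, whereas the null Smyd1 allele was inherited and so was present in every cell of the CKO mice. Controls kept 1 wild-type Smyd1 allele. By the study's account, its experiments after the histological comparison of the sexes used male tissue only.

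At the neuromuscular junction, the motor axon releases acetylcholine onto a pentameric receptor that is packed into the crest of the postsynaptic membrane. Agrin from the nerve binds LRP4, which activates the kinase MuSK, and MuSK acts through DOK7 and rapsyn to cluster the receptors. Acetylcholinesterase, anchored in the synaptic basal lamina by the collagen tail COLQ, ends each signal. In mature muscle these genes are transcribed mainly by the few nuclei beneath the synapse. The fetal receptor contains the gamma subunit, which is replaced by epsilon after birth, and denervated muscle transcribes alpha, delta and gamma subunits along the whole fiber.

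Promoters of receptor subunit genes hold E-boxes (CANNTG), bound by myogenic basic helix-loop-helix factors, and some hold N-boxes (CCGGAA), bound by Ets factors of the GABP kind. The stretches from 180 to 31 bases before the RefSeq start site of 4 subunit genes are shown because they hold most of these motifs, which are in capitals, and because they let the fetal gene be read beside the adult one. All are 5′ to 3′ on the gene's own strand, in build GRCm38.p6.
Chrna1 (chr2:73580369-73580518, minus strand): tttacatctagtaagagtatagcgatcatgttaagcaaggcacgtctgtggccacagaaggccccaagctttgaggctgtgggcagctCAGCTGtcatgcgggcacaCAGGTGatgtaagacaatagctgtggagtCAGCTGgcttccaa
Chrnb1 (chr11:69795968-69796117, minus strand): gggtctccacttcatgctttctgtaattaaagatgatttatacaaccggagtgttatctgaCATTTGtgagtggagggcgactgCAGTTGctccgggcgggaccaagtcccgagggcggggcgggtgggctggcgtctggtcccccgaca
Chrne (chr11:70619225-70619374, minus strand): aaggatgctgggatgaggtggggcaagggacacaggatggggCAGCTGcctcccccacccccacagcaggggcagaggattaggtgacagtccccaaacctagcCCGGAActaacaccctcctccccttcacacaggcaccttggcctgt
Chrng (chr1:87205631-87205780, plus strand): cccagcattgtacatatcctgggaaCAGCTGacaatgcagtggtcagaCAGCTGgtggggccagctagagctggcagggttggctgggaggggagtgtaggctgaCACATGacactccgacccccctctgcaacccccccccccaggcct

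Counting the start site as 0, E-boxes began at -92, -73 and -44 in Chrna1, at -119, -96 and -29 in Chrnb1 (the last outside the stretch shown), and at -155, -132 and -75 in Chrng. Chrne held a single E-box at -138 and a single N-box at -76. Both strands were searched in the 300 bases around each start site. CANNTG reads the same on both strands, and no E-box overlapped an N-box in these genes. Of the other members, Musk held 3 E-boxes, at -177, -100 and -68, Ache 1 at -199 and Dok7 1 at -149. That of Dok7 belongs to the start site at 35056766, and its other RefSeq start site, at 35057072, had no E-box or N-box. RefSeq promoters were matched for 7 of the 10 genes, with no entry for Chrnd, Colq and Rapsn. At least 3 E-boxes were present in 17.6% of 32851 mouse promoters of the same length, at least 1 in 72.3%, and an N-box in 14.9%. A match of letters is a description of the window and not evidence of binding. The RefSeq start site of Chrng lies inside the longer gene span that GENCODE gives.

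Whole-muscle RNA was depleted of ribosomal RNA and sequenced, and the deposited values are FPKM, fragment counts divided by transcript length and by library size, which can therefore be compared between genes. Total fragment counts were not analysed here, but steps between low FPKM values gave relative depths from 0.984 to 1.768 times that of control 1. Expression of 10 fast myofiber markers was high in all 12 libraries (summed FPKM 27250 to 45550 in controls and 30180 to 37010 in Smyd1 CKO). Smyd1 itself did not separate the groups. Its FPKM was 32.95 to 47.13 in controls (median 34.92) and 27.8 to 39.94 in Smyd1 CKO (median 33.5), with an adjusted p of 0.545 by limma. Whole-gene FPKM therefore did not check the genotype labels, and every direction below rests on them. The sources used here do not state which exons the floxed allele loses.

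Smyd1 CKO muscle held more transcript of the receptor alpha, delta and epsilon subunits and of acetylcholinesterase. Chrnd rose 2.98-fold, Chrne 2.2-fold, Ache 2.05-fold and Chrna1 1.81-fold in mean FPKM. Of the 9 members tested with limma on log2(FPKM + 0.1), these 4 passed an adjusted p of 0.05 and 0 were lower, in a comparison that called 2.02% of 12695 genes higher and 0.268% lower. The members were chosen with earlier results of these data known, so their calls are not an independent test against these shares. All 9 log2 fold changes were above 0, as were 77.9% of all genes tested, and 8 exceeded the median of all genes. The median over the 9 was 0.48 on the log2 scale, against 0.18 for all genes tested. In 2 members, Chrnd and Ache, every Smyd1 CKO mouse was above every control, a pattern shown by 2.23% of the genes tested. In RNA from whole muscle, more RNA per synaptic nucleus and more nuclei transcribing a gene cannot be told apart.

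Because most genes moved slightly upward, the scale matters to some of the calls. After the FPKM were rescaled by the median ratio between libraries, the median log2 fold change of all genes went from 0.18 to 0.01, and the calls over all genes went from 257 higher and 34 lower to 97 higher and 89 lower. Chrnd (1.03, adjusted p = 0.0238) and Ache (0.83, adjusted p = 0.00656) were then called by limma, whereas Chrna1 (0.63, adjusted p = 0.103) and Chrne (0.92, adjusted p = 0.0997) were not. On this scale 0.764% of genes were called higher.

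**Figure D1:**
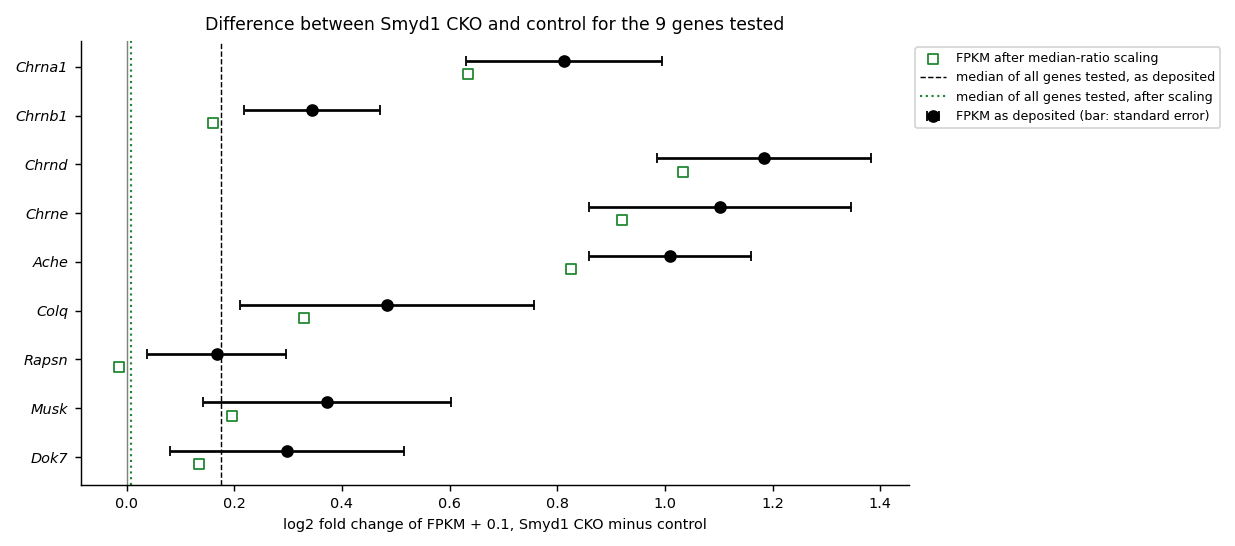
Log2 fold change of FPKM + 0.1 (Smyd1 CKO minus control) of the 9 members tested, with 6 mice in each group. Black points with standard errors are the FPKM as deposited, open squares the values after median-ratio scaling, and vertical lines the median of all genes on each scale. Chrnd, Chrne, Ache and Chrna1 lie farthest to the right on both scales, and Rapsn lies just below the median of all genes on each scale.

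Chrna1 (chr2:73563215-73580338, minus strand in GRCm38, the build of all gene positions given here) encodes the alpha subunit, which carries the acetylcholine binding site and is present in both the fetal and the adult receptor. Its FPKM ran from 0.889 to 1.82 in controls, with a median of 1.21, and from 1.63 to 2.95 in Smyd1 CKO, with a median of 2.22. The groups met only at their edges, since 5 of 6 CKO mice were above every control and control 5 was above the lowest CKO mouse. The mean rose from 1.26 ± 0.331 to 2.27 ± 0.511 (SD, n = 6 each), a log2 fold change of 0.81 (SE 0.182, limma adjusted p = 0.0331). This call held in 9 of 21 alternative analyses, with adjusted p from 0.0115 to 0.534. It was lost when control 2, 3, 4 or 6 or CKO 1, 3 or 6 was left out, with adjusted p of at most 0.0926 in those fits.

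Chrnb1 (chr11:69784036-69795943, minus strand), the beta subunit through which rapsyn contacts the receptor, was the most abundant of the 10 transcripts. It ranged from 4.3 to 5.98 FPKM in controls (median 4.8) and from 5.16 to 7.84 in Smyd1 CKO (median 6.29). The groups overlapped, and the log2 fold change of 0.35 (SE 0.126) did not pass the threshold (limma adjusted p = 0.155), although it did with sample weights (0.44, adjusted p = 0.0227). On the median-ratio scale it was 0.16.

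Chrnd (chr1:87190607-87200070, plus strand) encodes the delta subunit, also common to the fetal and adult receptor, and had the largest log2 fold change of the members tested. Its FPKM was 0.0936 to 0.278 in controls (median 0.148) and 0.397 to 0.671 in Smyd1 CKO (median 0.485). Each CKO mouse was above each control, and the lowest CKO value, in CKO 6, was well clear of the highest control value, in control 2. The log2 fold change was 1.18 (SE 0.199, limma adjusted p = 0.00721), and 19 of 20 alternative analyses made the same call (adjusted p from 0.0021 to 0.21). The level was low. The steps in the FPKM correspond to about 40 fragments over the 6 controls and 129 over the 6 CKO libraries, up to a common factor that the files do not fix.

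Chrne (chr11:70614883-70619216, minus strand), the epsilon subunit of the adult receptor, was transcribed at 0.523 to 1.61 FPKM in controls (median 1.18) and at 1.6 to 3.55 in Smyd1 CKO (median 2.69). Control 1 was the lowest mouse and CKO 1 the highest, and 5 of 6 CKO mice were above all controls. The mean rose from 1.16 ± 0.404 to 2.55 ± 0.701 (SD, n = 6 each), with a log2 fold change of 1.10 (SE 0.243, limma adjusted p = 0.0303). The call held in 11 of 21 alternatives, with adjusted p from 0.0038 to 0.509. It was lost without control 5 or 6 or CKO 1, 3, 4 or 6, with adjusted p of at most 0.0844 in those fits.

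Chrng (chr1:87204657-87212694, plus strand), the gamma subunit that marks the fetal receptor, stayed near the limit of detection in every library. It was listed at 0 in 4 controls, at 0.0382 FPKM in control 3 and at 0.0757 in control 5. In Smyd1 CKO it was listed at 0.0817, 0.0445, 0.185, 0.0311 and 0.245 in mice 1 to 5 and at 0 in mouse 6. The 3 highest values were thus all in CKO mice, but the ranges overlapped, and the lowest of the 3, 0.0817, was close to the 0.0757 of control 5. These values amount to about 3 fragments over all controls and 15 over all CKO libraries, again up to a common factor. The gene did not reach the filter for limma, and an exact two-sided permutation test of the mean FPKM gave p = 0.0974. A listed 0 need not mean absence, since totals of about 3 and 15 fragments leave room for a library to miss the transcript. Ttn, the titin gene that every myofiber uses, was also listed at 0 in 8 of the 12 libraries. It was at 639.5 to 871.05 FPKM in the others, far from the level of Chrng, and why it was listed at 0 was not tested.

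**Figure D2:**
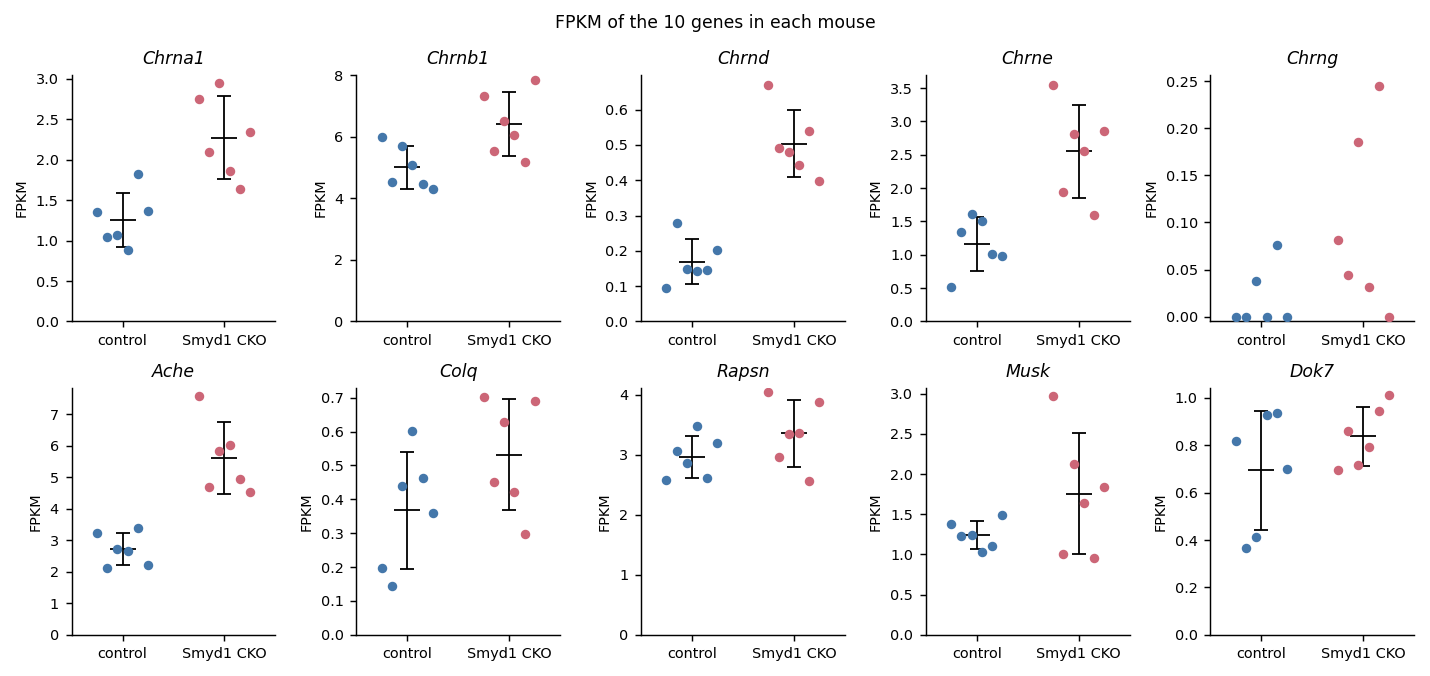
FPKM of the 10 members in each of 6 control and 6 Smyd1 CKO mice (1 point per mouse, in replicate order within a group), with the mean and SD as a horizontal line and bar, except for Chrng. Chrnd and Ache show no overlap between groups, Chrna1 and Chrne overlap by 1 control each, and Rapsn, Musk, Colq and Dok7 overlap broadly.

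The ratio of Chrng to Chrne in a mouse sets the fetal against the adult subunit and does not depend on library scaling. It was 0% in 4 controls, 2.37% in control 3 and 7.53% in control 5. In the CKO mice it was 2.3%, 2.3%, 6.57%, 1.22%, 15.34% and 0% in order of mouse number. Chrng was thus listed below Chrne in each library. The highest ratio, in CKO 5, rests on about 5 Chrng fragments, and a listed 0 carries the limit given above. The means of this ratio did not differ beyond their spread (exact two-sided permutation test over all assignments of the mice, p = 0.2727). With the pseudocount of 0.1 used for the planned test, the log2 ratio was -3.37 ± 0.592 in controls and -3.84 ± 0.916 in Smyd1 CKO (SD, n = 6 each), a difference of -0.47 (exact permutation p = 0.3117, also after Benjamini-Hochberg adjustment over 4 ratios). The direction of this difference depended on the pseudocount. It was 0.71 with 0.01 (adjusted p = 0.478), and -0.61 with 1, which passed (adjusted p = 0.0303) but is above every Chrng value.

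The other subunit ratios were taken against the beta subunit. Relative to Chrnb1, Chrnd was 1.56% to 6.14% in controls (median 3.06%) and 5.06% to 10.44% in Smyd1 CKO (median 8.11%). Only CKO 6 lay within the range of the controls. The difference of the log2 ratio was 0.84 (exact two-sided permutation p = 0.01082, 0.04329 after Benjamini-Hochberg adjustment). The adjusted p rose above 0.05 without control 1, 3 or 4 or CKO 1, 2, 3, 4 or 5, while the difference stayed between 0.70 and 0.97. It came to 0.06 with a pseudocount of 1, which is above every Chrnd value. With 0.01 it was 1.22 (exact permutation, adjusted p = 0.0173), and after median-ratio scaling 0.87 (adjusted p = 0.026). The adjusted p was below 0.05 in 6 alternatives and above it in 10. The ratio of Chrna1 to Chrnb1 was 17.49% to 40.7% in controls and 29.85% to 45.2% in Smyd1 CKO, with a log2 difference of 0.47 that did not pass after adjustment (exact permutation p = 0.04978, adjusted 0.09957).

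**Figure D3:**
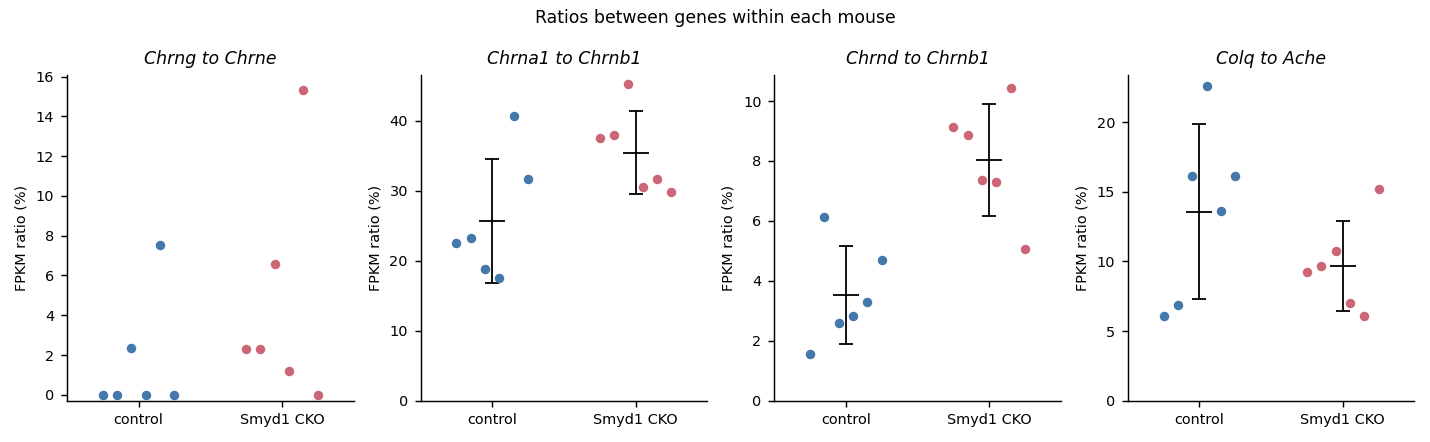
Ratio of the FPKM of 2 genes within each mouse, in percent, for 4 pairs (1 point per mouse, 6 per group, with mean and SD except for Chrng to Chrne). The Chrnd to Chrnb1 ratio is higher in 5 of 6 CKO mice than in any control, whereas Chrng to Chrne overlaps between groups, at 0% to 7.53% in controls and 0% to 15.34% in Smyd1 CKO.

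Summed over the 5 subunits, receptor transcript amounted to 6.85 to 8.57 FPKM in controls and 9.18 to 14.4 in Smyd1 CKO. Chrnb1 made up 65.6% ± 5.45 of this sum in controls and 54.4% ± 3.12 in Smyd1 CKO (SD, n = 6 each), and the ranges of 59.45% to 75.27% and 50.35% to 58.36% did not meet. Chrne made up 15.3% ± 4.98 and 21.3% ± 2.67, Chrna1 16.6% ± 4.78 and 19.1% ± 2.25, and Chrnd 2.26% ± 0.972 and 4.35% ± 1.01. The share of Chrng was at most 1.01% in a control and 2.67% in a CKO mouse. These shares describe transcript, and the assembled receptor holds the alpha subunit in more copies than the others.

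**Figure D4:**
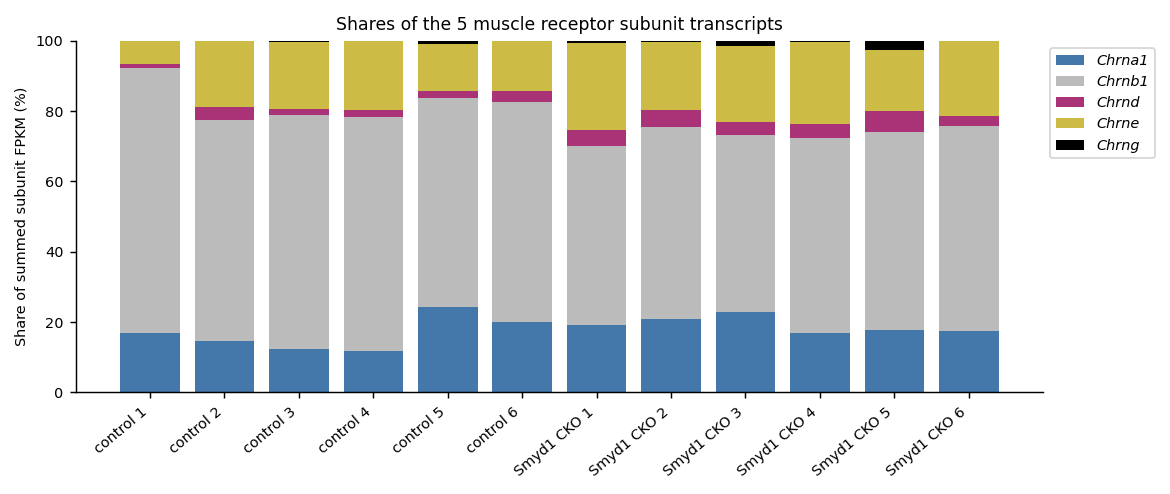
Share of each of 5 receptor subunit transcripts in their summed FPKM (y axis, percent) in each mouse (x axis). Chrnb1 takes 59.45% to 75.27% in controls and 50.35% to 58.36% in Smyd1 CKO, and Chrng is visible as a thin band at the top in a few mice.

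Ache (chr5:137287519-137294466, plus strand) encodes acetylcholinesterase, the enzyme that hydrolyses acetylcholine in the cleft. It ranged from 2.13 to 3.39 FPKM in controls (median 2.69) and from 4.54 to 7.57 in Smyd1 CKO (median 5.38). Every CKO mouse was above every control, with CKO 1 the highest. The mean rose from 2.73 ± 0.51 to 5.6 ± 1.14 (SD, n = 6 each), with a log2 fold change of 1.01 (SE 0.15, limma adjusted p = 0.00333). Ache had the smallest p of the members, ranked 25 among all genes tested, and was called in 20 of 21 alternatives (adjusted p from 0.00087 to 0.124).

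Colq (chr14:31523082-31591343, minus strand), the collagen that tethers acetylcholinesterase to the basal lamina, was listed at 0.145 to 0.602 FPKM in controls (median 0.4) and at 0.299 to 0.701 in Smyd1 CKO (median 0.54). The groups overlapped, and the log2 fold change of 0.48 (SE 0.273) did not pass (limma adjusted p = 0.336). Its fragments were few, about 83 over the controls and 132 over the CKO libraries. The ratio of Colq to Ache was 6.07% to 22.59% in controls and 6.05% to 15.22% in Smyd1 CKO. Its log2 difference of -0.53 did not pass the test (exact two-sided permutation p = 0.09524, adjusted 0.127), whereas with a pseudocount of 1, which is above every Colq value, it was -0.65 and passed (adjusted p = 0.0173).

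The clustering genes gave no call. Rapsn (chr2:91035620-91045729, plus strand), the scaffold that binds receptors together, was 2.57 to 3.48 FPKM in controls (median 2.95) and 2.55 to 4.04 in Smyd1 CKO (median 3.35), and its log2 fold change of 0.17 (SE 0.129, limma adjusted p = 0.47) was just under the median of all genes, 0.18. The sign turned after median-ratio scaling (-0.01). Musk (chr4:58285960-58374303, plus strand), the receptor kinase, was 1.03 to 1.5 FPKM in controls (median 1.23) and 0.955 to 2.97 in Smyd1 CKO (median 1.74). Its CKO values spanned the controls on both sides, with CKO 1 the highest and CKO 5 the lowest of all 12 mice (log2 fold change 0.37, SE 0.231, limma adjusted p = 0.375). Dok7 (chr5:35056766-35087839, plus strand), the adaptor that activates MuSK from within the fiber, was 0.365 to 0.937 FPKM in controls (median 0.761) and 0.695 to 1.01 in Smyd1 CKO (median 0.828), and the groups overlapped (log2 fold change 0.30, SE 0.217, limma adjusted p = 0.447).

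By mean FPKM the order in controls was Chrnb1, Rapsn, Ache, Chrna1, Musk, Chrne, Dok7, Colq, Chrnd and Chrng. Only Chrnb1, Ache and Chrnd had ranges that did not meet that of the next gene in this order. In Smyd1 CKO the order was Chrnb1, Ache, Rapsn, Chrne, Chrna1, Musk, Dok7, Colq, Chrnd and Chrng, and only Ache and Chrnd stood clear of the next. Ache was below Rapsn in the control order, with overlapping ranges, and clear above it in Smyd1 CKO. Chrne stood next below Musk in controls and next above Chrna1 in Smyd1 CKO, with overlapping ranges in both cases.

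Within the groups, the members varied together only loosely. Over the 36 pairs of tested members, 26 correlations of log2 values centred on their own group were above 0 across the 12 mice, with a median of 0.261 and a range from -0.596 for Chrnd and Dok7 to 0.752 for Chrne and Rapsn. Points from 1 mouse share a library. Among 7968 genes with a mean of at least 1 FPKM, those most like Chrna1 were Psmf1 (r = 0.921), Unc45a, Fam20c, Mtap and Dhx57, and those most like Ache were Serinc2 (r = 0.881), 2410006H16Rik, Srpr, Cbx3 and Tmem243. None of these is a member.

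Markers of other cells moved with some members. The summed FPKM of 10 slow myofiber markers was 33.94 to 78.74 in controls, and 188.5, 131.5 and 363.9 in CKO 1, 3 and 6 against 51.22 to 59.3 in the other CKO mice. Gene by gene, 9 of the 10 were higher at an unadjusted p below 0.05 in the limma fit (18.1% of all genes tested), with a median log2 fold change of 1.37, and Myh7b, a slow-type myosin, passed after adjustment (0.94, adjusted p = 0.047). The exact permutation test of the sum gave p = 0.1082, with Myl3 (21.98 FPKM in controls and 15.93 in Smyd1 CKO) going the other way. All 10 markers were above 0 in at least 1 library. Within groups this sum went with Chrnb1 (r = 0.677), Musk (0.63) and Rapsn (0.624), less with Chrna1 (0.406), and hardly with Ache (0.097) or Chrnd (-0.108), over 12 mice. The median-ratio scaling factor of the library, on the log2 scale, also went with Chrnb1 (0.731) and Ache (0.536), and inversely with Chrnd (-0.538). It was at 0.32 with Musk and -0.132 with Rapsn. With CKO 1, 3 and 6 left out, a choice made after seeing the data, Ache (0.92) and Chrnd (1.17) kept log2 fold changes near those above, Chrne (0.81) and Chrna1 (0.56) came out lower, and Musk was at -0.08 and Rapsn at -0.001. With 3 CKO mice left, limma called 0 members, and only 4 genes higher and 3 lower among all 12176 genes tested. The mice left out include CKO 1, the library of greatest relative depth (1.768). Whether the members differ from each other in these values, or in their relation to slow myofibers, was not tested.

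Schwann cell markers summed to 12.43 to 17.1 FPKM in controls and 14.6 to 22.42 in Smyd1 CKO (exact permutation p = 0.01948), with 10 of 11 above 0 in at least 1 library and Gfap listed at 0 throughout. Of 10 tested with limma, 0 passed. Log2 fold changes were above 0 for 8 of them, as for 77.9% of all genes tested, and below 0 for S100b and Egr2. Satellite cell markers summed to 8.791 to 16.64 and 14.1 to 25.41 (exact permutation p = 0.008658), with 9 of 9 above 0 in at least 1 library, and Itga7, an integrin also made by myofibers, passed (1.03, limma adjusted p = 0.0149). Itga7 was a large part of this sum, with means of 4.579 of 11.1 FPKM in controls and 9.38 of 19.24 in Smyd1 CKO. All 8 markers tested had a log2 fold change above 0. Of 6 markers of regenerating or embryonic myofibers, 4 were higher at an unadjusted p below 0.05, and Myh3, the embryonic myosin, passed (0.551 to 1.81 FPKM in controls, 1.3 to 25.67 in Smyd1 CKO, log2 fold change 2.67, limma adjusted p = 0.0358). Their sum was 124.5 to 263.5 FPKM in controls and 102.8 to 327.9 in Smyd1 CKO (exact permutation p = 0.4935). This sum mainly followed Actc1, whose mean was 186.4 of 196.4 FPKM in controls and 138.8 of 167.3 in Smyd1 CKO. Of the 6 markers, 5 had a log2 fold change above 0, and Actc1 went the other way. Myh1, a fast myosin, also passed (1.05, limma adjusted p = 0.00733). Only 2 of the 10 fast myofiber markers had a log2 fold change above 0, however, and their median was -0.32. The part of these cells in the members' values was not tested. Of 9 motor axon markers, Chat, Slc18a3 and Mnx1 were listed at 0 in all libraries and the sum stayed between 0 and 0.889 FPKM (exact permutation p = 0.2424). Sums of fast myofiber, fibroblast, tendon, macrophage, endothelium, adipocyte and erythrocyte markers gave exact permutation p from 0.4351 to 0.8896. The p-values of marker sums were not adjusted for the number of lists.

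Beyond the members, 88 further genes of the synapse were listed in 7 groups, of which 74 were tested. Of these, 6 rose and 1 fell, with a median log2 fold change of 0.28, against 2.02% higher, 0.268% lower and a median of 0.18 over all genes tested. The lists, like the members, were chosen with earlier results of these data known, which limits this comparison. A single call in a list of 13 to 17 genes is too few to set against the shares over all genes. In agrin and MuSK signalling, 4 of 18 rose: Lrp4, the agrin receptor (0.78, SE 0.154, limma adjusted p = 0.0175), Pak1, a kinase downstream of MuSK (0.95, adjusted p = 0.00251), Dvl1, a MuSK-binding Wnt adaptor (0.48, adjusted p = 0.0151), and Macf1, which links rapsyn to microtubules (0.65, adjusted p = 0.0436). Agrn, which muscle also transcribes, was at 0.48 (adjusted p = 0.113). Lrp4 was 0.895 to 1.2 FPKM in controls and 1.35 to 2.47 in Smyd1 CKO, with no overlap.

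Of 17 basal lamina genes tested, 1 rose, Lamb2, the laminin beta2 chain concentrated at the synapse, from 8.35 to 10.48 FPKM in controls to 12.1 to 18.1 in Smyd1 CKO (log2 fold change 0.65, limma adjusted p = 0.00733). In the postsynaptic scaffold list of 13, Prkar1a, a protein kinase A regulatory subunit, rose (0.58, adjusted p = 0.0385) and Sntb1, beta1-syntrophin of the dystrophin complex, fell (-0.96, adjusted p = 0.034). Only Pak1 and Lamb2 of the 6 that rose were also called after median-ratio scaling. None of the 8 neuregulin and Ets genes tested passed in the limma fit, although 3 were higher at an unadjusted p below 0.05, as were 18.1% of all genes tested.

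Of the cholinesterase partners, neither passed the test. Bche, butyrylcholinesterase, was at 0.08 on the log2 scale (limma adjusted p = 0.846). Prima1, the membrane anchor for acetylcholinesterase, was 0.364 to 1.93 FPKM in controls (median 0.873) and 0 to 0.935 in Smyd1 CKO (median 0.113), where it was listed at 0 in mice 3 and 6. Its log2 fold change of -2.04 (SE 0.545) missed the threshold (adjusted p = 0.0639).

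Of 15 activity-dependent regulators tested, 0 passed in the limma fit, with 8 higher and 2 lower at an unadjusted p below 0.05, a cut passed by 18.1% and 1.76% of all genes tested. Myog, myogenin, an E-box factor that rises on denervation, was 0.668 to 3.56 FPKM in controls (median 1.52) and 1.66 to 6.83 in Smyd1 CKO (median 4.54), with a log2 fold change of 1.36 (SE 0.369, limma adjusted p = 0.0658). Of the 11 other nicotinic subunits, 1 reached the filter. It was Chrna10, named after its values were seen, at 0.001 on the log2 scale.

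**Figure D5:**
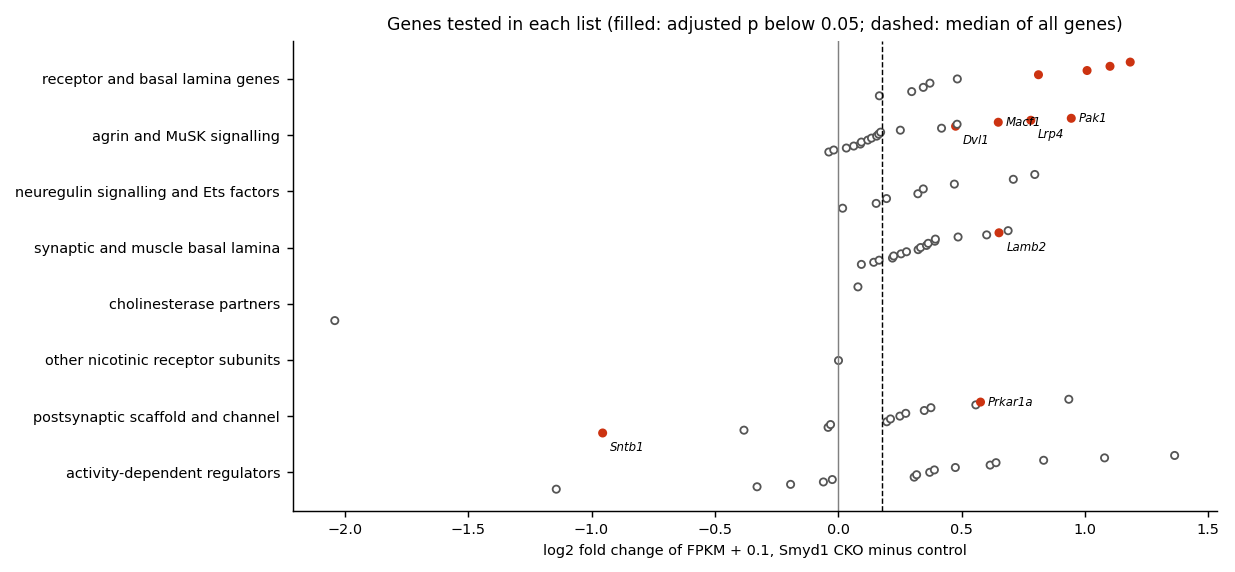
Log2 fold change of FPKM + 0.1 (x axis, Smyd1 CKO minus control) of each tested gene in the member list and 7 lists of related genes (y axis). Filled points pass an adjusted p of 0.05, namely 4 of 9 members and 7 of 74 others, and the dashed line is the median of all genes, 0.18.

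In the annotation, Chrne, Ache and Rapsn overlap other genes on the opposite strand and Colq and Ache overlap genes on their own strand. The strand setting of the counting is not given in the sources used here, so reads of overlapping partners may be included.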

How the data were processed

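Total RNA of 12 tibialis anterior muscles (6 controls, 6 Smyd1 CKO) was depleted of ribosomal RNA and sequenced by the authors, who trimmed adapters, aligned reads with bowtie2 and TopHat2, kept uniquely mapped reads and derived the deposited FPKM values with Cufflinks. Per the labels, the versions were TopHat2 2.0.10 and Cufflinks 2.1.1 and the build was mm9. The gene annotation is not given in the sources used here. From 23950 rows per file, 27 whose symbols had turned into dates were dropped.

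The 12695 genes that reached 0.1 FPKM in 6 or more of the 12 libraries were compared on log2(FPKM + 0.1) with limma 3.58.1 (intensity trend, R 4.3.3), with Benjamini-Hochberg adjustment over all of them. The pseudocount understates changes of low genes. Ratios were tested by exact permutation of mice between groups, whose smallest p is 0.002165. Code was tested on simulated data. Each replicate is 1 mouse. Libraries of 1 group correlated at 0.944 to 0.972. Gene positions are from GENCODE M21 (GRCm38) and promoters from RefSeq (GRCm38.p6), not from mm9. Members and lists were chosen with earlier results of these data known. The text names all members, genes of the pathway and marker lists past the threshold, Agrn, Lrp4, Bche, Prima1, Myog and Smyd1, and the 5 genes most like Chrna1 and Ache. Alternatives were other pseudocounts, filters, scalings, a replicate block, limma settings and leaving out each mouse.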

Additional observations from a re-analysis of the deposited data

How the results depend on the processing

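The 4 members called higher were 5 with sample weights (Chrnb1 added), 2 with no filter on low values, 2 after median-ratio scaling, 2 after quantile normalization and 2 to 4 when each mouse was left out in turn (2 without control 6, CKO 1, CKO 3 or CKO 6), and 0 with CKO 1, 3 and 6 left out. Members lower were 0 under every alternative run. Pathway genes called higher were 2 after median-ratio scaling, 2 after quantile normalization, 24 with sample weights, 4 to 16 with 1 mouse left out (16 without control 1) and 0 with the 3 CKO mice left out, against 6. Pathway genes called lower were 0 with a filter at 1 FPKM, 0 with no filter, 2 after median-ratio scaling, 2 after quantile normalization, 4 with sample weights, 0 to 3 with 1 mouse left out and 0 with the 3 CKO mice left out, against 1. Calls over all genes shifted in the same fits. Those higher were 1400 with sample weights, 1075 without control 1, 97 after median-ratio scaling and 101 after quantile normalization, against 257. Those lower were 115 with sample weights, 69 without control 1, 89 after median-ratio scaling and 68 after quantile normalization, against 34. Mice of the same replicate number had correlations of deviations from -0.086 to 0.164. In 2 of 6 pairs each mouse correlated best with its own number. These values do not settle whether the numbers pair the mice. With the numbers as a replicate block, pathway genes called were 10 higher and 2 lower, and members called were 3 higher. The Chrnd to Chrnb1 difference of 0.839 then had an adjusted p of 0.25 in a sign-flip test. The smallest p of that test, 0.03125, cannot pass for 1 ratio alone after adjustment over 4.

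With a pseudocount of 1 the log2 differences were -0.611 for Chrng to Chrne, 0.064 for Chrnd to Chrnb1 and -0.652 for Colq to Ache, and with 0.01 Chrng to Chrne was 0.71. With 1 mouse left out they ran from -0.776 to -0.258 for Chrng to Chrne, 0.376 to 0.603 for Chrna1 to Chrnb1, 0.698 to 0.97 for Chrnd to Chrnb1 and -0.69 to -0.388 for Colq to Ache. Rapsn turned to -0.015 after median-ratio scaling, -0.016 after quantile normalization and -0.001 with the 3 CKO mice left out, and Musk to -0.08 with them left out. The causes were not tested. Chrng rests on about 3 fragments over the controls, Chrnd on 40 and Colq on 83. Fragments of the other members were not estimated.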
